A study of Mus musculus with 16 samples.

Results

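Protein kinase C (PKC) isoforms and diacylglycerol kinases were described in the tibialis anterior (TA) muscle, a fast muscle of the lower hindlimb, of mice given GDF15, a vehicle or the food ration of the GDF15-treated animals. The set was chosen by gene symbol, with earlier results of these data known, and holds 8 of the 14538 genes in the deposited table: Prkca, Prkcd, Prkce, Prkcq, Prkcz, Prkci, Dgkd and Dgkz. All 8 had a row and passed the filter on low values that left 11841 genes. Because these 3 groups are also what the choice of the genes was based on, their differences are given as fold changes with intervals and without p-values.

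Bulk RNA-seq was made from 16 wild-type mice, labelled C57BL/6 (male C57BL/6J in the study's methods), with 1 library per mouse: 5 in the Vehicle group, 6 in the GDF15 group and 5 in the PairFed group, whose mice are numbered 2 to 6. Every mouse, controls included, was kept at about 29 degrees C on a NASH diet, a western-style diet used to bring about obesity and fatty liver disease, from 8 weeks of age. Recombinant GDF15, a stress-induced circulating protein that lowers food intake, was injected under the skin once a day. The labels list doses of 0.3, 1 and 5 nmol/kg without tying a dose to a library. Each PairFed ration was set by the previous day's intake of the GDF15 group, so that GDF15 against PairFed compares animals with the same food intake, and PairFed against Vehicle compares a smaller with a free food intake. The 3 comparisons share their samples and are not independent of one another.

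PKC enzymes are serine and threonine kinases that act downstream of diacylglycerol, a lipid made when phospholipase C cuts membrane phosphoinositides and also an intermediate of triglyceride synthesis and breakdown. Conventional isoforms such as PKCα need calcium and diacylglycerol, isoforms of the δ, ε and θ kind need diacylglycerol alone, and atypical isoforms (ζ and ι) need neither. Diacylglycerol kinases end the signal by turning diacylglycerol into phosphatidic acid. In skeletal muscle, diacylglycerol and the δ, ε and θ isoforms have long been studied for their link to insulin resistance after lipid overload.

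Promoter sequences are shown for the member with the largest difference between GDF15 and PairFed, for the most abundant PKC isoform, and for the 1 member promoter with a cAMP response element motif, since cAMP is the messenger that relays β-adrenergic signals. They are RefSeq sequences of build GRCm38.p6, the same build as mm10, each 300 bases long (250 before the annotated start and 50 from it), written 5′ to 3′ on the strand of the gene. A RefSeq promoter was found for 7 of the 8 members, 11 promoters in all, and none for Prkce. Capitals mark TGACGTCA (the cAMP response element), CACGTG (the E-box) and GGGCGG (the GC box), searched on both strands. The motifs were chosen with their matches known.
Prkcd, upstream start, chr14:30626159-30626458, minus strand: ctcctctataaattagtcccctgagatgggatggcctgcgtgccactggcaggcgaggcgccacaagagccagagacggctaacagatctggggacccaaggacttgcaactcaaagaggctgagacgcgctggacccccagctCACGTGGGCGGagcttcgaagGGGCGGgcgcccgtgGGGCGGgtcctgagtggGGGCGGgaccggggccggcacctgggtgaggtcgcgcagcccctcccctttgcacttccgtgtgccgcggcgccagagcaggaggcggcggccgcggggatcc
Prkcd, downstream start, chr14:30610261-30610560, minus strand: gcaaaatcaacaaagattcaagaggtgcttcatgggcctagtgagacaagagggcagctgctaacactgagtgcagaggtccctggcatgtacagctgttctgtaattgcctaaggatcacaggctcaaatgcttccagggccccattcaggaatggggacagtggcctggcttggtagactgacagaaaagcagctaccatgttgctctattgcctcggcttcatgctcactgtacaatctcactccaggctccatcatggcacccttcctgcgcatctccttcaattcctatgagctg
Prkcq, chr2:11172132-11172431, plus strand: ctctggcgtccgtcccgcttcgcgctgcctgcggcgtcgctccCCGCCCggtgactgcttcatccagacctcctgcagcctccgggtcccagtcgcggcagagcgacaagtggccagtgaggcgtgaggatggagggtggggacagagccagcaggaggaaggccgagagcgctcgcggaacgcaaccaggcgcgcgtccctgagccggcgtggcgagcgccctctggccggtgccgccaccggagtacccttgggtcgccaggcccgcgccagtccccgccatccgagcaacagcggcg
Prkcz, internal start, chr4:155345740-155346039, minus strand: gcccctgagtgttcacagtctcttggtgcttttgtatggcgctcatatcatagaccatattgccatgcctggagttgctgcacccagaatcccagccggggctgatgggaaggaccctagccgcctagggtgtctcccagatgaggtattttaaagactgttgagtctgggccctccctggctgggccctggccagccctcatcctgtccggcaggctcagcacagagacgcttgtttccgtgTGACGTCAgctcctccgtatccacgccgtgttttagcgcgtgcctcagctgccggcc

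The upstream Prkcd promoter held 1 CACGTG, whose first letter lies at position -106 from the start, and 4 GGGCGG, the first of which overlaps the CACGTG. The downstream Prkcd promoter held none of the 3 motifs. The Prkcq promoter held 1 GGGCGG, on the other strand. The internal Prkcz promoter held TGACGTCA with its first letter at position -7. TGACGTCA was in 1 of the 11 member promoters and in 1.79% of all 32851 promoters, CACGTG in 1 of 11 and in 7.15% of all, and GGGCGG in 9 of 11 and in 35.7% of all. These matches describe letters in the window. The table measures RNA per gene, so it does not say which start was used.

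The libraries held between 9468599 and 15030303 reads by an approximation from the smallest steps in the values, and the GDF15 libraries were shallower (median 12127731) than the Vehicle (13888125) and PairFed libraries (14268720). Libraries of the same group correlated at 0.978 to 0.986 over genes (35 pairs) and differed by more than sampling noise (mean chi-square per gene 4.90 to 19.7). All 8 myofibre markers were present at high levels, with a sum of 1952000 to 2393000 normalized counts per library and Myh4, the myosin of the fastest fibres, the most abundant. These are the authors' normalized counts, that is, reads scaled so that libraries of different depth can be compared, obtained by reversing the log2-scale transformation of the deposited values.

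Per kilobase of the longest coding transcript, Prkcq (PKCθ, the diacylglycerol-dependent isoform best known from muscle and T cells) had the highest level of the PKC members, at 418.6 ± 30.6 normalized counts per kilobase (SD, n = 16). Prkca, the calcium-dependent isoform, was next at 132.6 ± 5.26 per kilobase. Prkce followed with 43.98 ± 3.86 and Prkcd with 39.5 ± 8.88 per kilobase, and these neighbours did not separate, since Prkce was the higher in 11 of 16 libraries. The atypical isoforms were lowest, with Prkci at 14.3 ± 1.41 and Prkcz at 7.85 ± 3.28 per kilobase, and Prkci was the higher of the pair in 14 of 16 libraries. Among the kinases that remove diacylglycerol, Dgkz (DGKζ) reached 417.3 ± 28.3 per kilobase and Dgkd (DGKδ) 97.7 ± 6.34. Dgkz and Prkcq did not separate, with Prkcq higher in 9 of 16 libraries.

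Most of this order did not depend on the transcript length used, but 2 genes moved. With the median length of the coding transcripts, Prkci stood at 109.4 per kilobase, above Prkce (58.4) and Prkcd (50.8), because its median coding transcript has 614 bases against 4708 for the longest. Dgkd then stood at 248.7, above Prkca at 208.9. The place of these 2 genes therefore rests on which transcript the muscle uses, which a table of gene sums does not show.

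Within the family of 9 PKC isoforms with a row in the table, Prkcq made up 59.2% of the summed level per kilobase on average and between 54.6% and 62.4% in single libraries. Prkca made up 18.8%, Prkch (PKCη, not a member) 6.67%, Prkce 6.23%, Prkcd 5.59%, Prkci 2.03% and Prkcz 1.11%. Prkcb, a conventional isoform known mainly from lymphocytes, was near the floor, at 0.0348%. Of the 8 diacylglycerol kinases with a row, Dgkz made up 65.2% (62.1% to 69.3% in single libraries), Dgkd 15.28% and Dgka (DGKα) 11.6%. Dgkq and Dgke made up 3.39% and 3.02%, and Dgkh, Dgkb and Dgkg each under 1%. These shares depend on the transcript length. With the median coding transcript, a length tried after the data were seen, Prkcq made up 51.3% and Prkca 19.7%, Prkci 10.3%, Prkce 5.52%, Prkcd 4.80%, Prkch 4.44% and Prkcz 3.60%, so that Prkci moved above Prkce, Prkcd and Prkch. Dgkz then made up 54.9%, Dgkd 28.2%, Dgka 8.41%, Dgke 2.70%, Dgkq 2.45% and Dgkh 2.37%. Prkcq and Dgkz had the largest share of their family with both lengths.

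**Figure D1:**
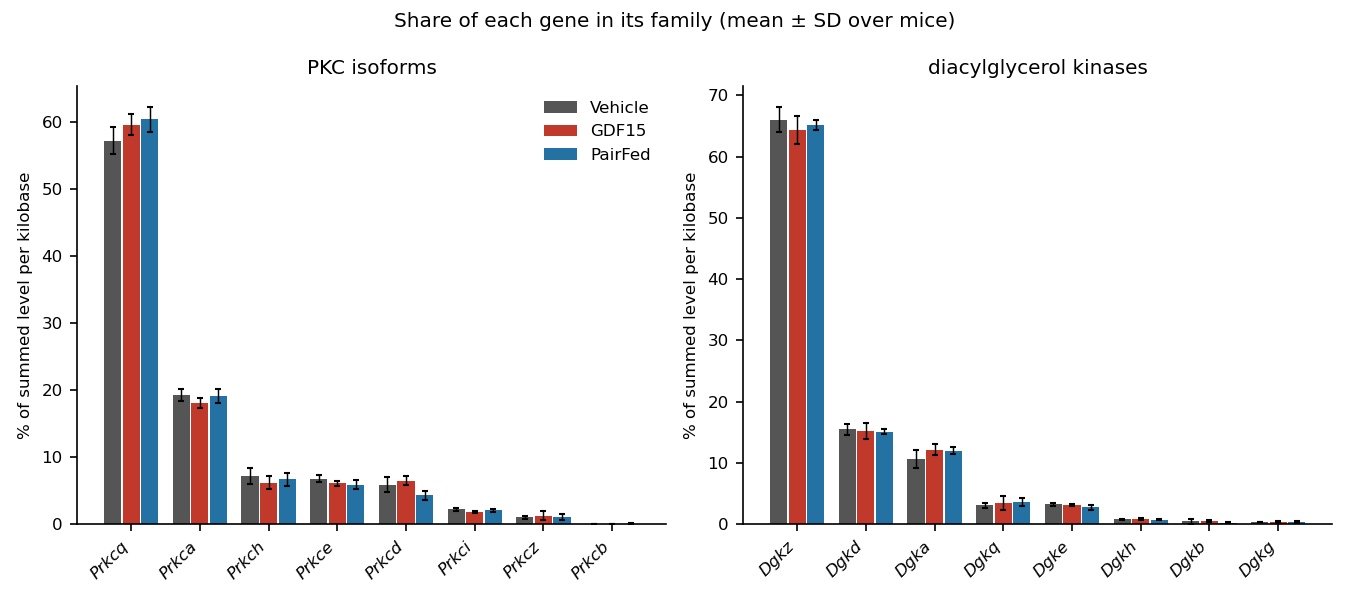
Share of each gene (y axis, percent of the family's summed normalized counts per kilobase of the longest coding transcript) for PKC isoforms (left) and diacylglycerol kinases (right). Bars are group means of 5 Vehicle, 6 GDF15 and 5 PairFed mice and whiskers are SD, and in every group Prkcq and Dgkz are the largest part of their family.

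T cells also express Prkcq, and their markers were checked. Of the 8 T cell markers, Cd3e, Cd3g, Cd4, Cd8a and Trac had no row in the table. Cd3d averaged 0.946, 1.09 and 0.373 normalized counts in Vehicle, GDF15 and PairFed and was at 0 in 8 of 16 libraries. Lck averaged 1.00, 2.99 and 0.0836 and was at 0 in 5. Only Cd247 was well above 0, with group means of 36.1, 45.1 and 40.5. Prkcq had at least 1339.8 normalized counts in every library. Across the 16 libraries, Pearson's r of Prkcq was 0.36 with the T cell sum (0.19 once group means were subtracted), 0.63 with the macrophage sum (0.76) and 0.53 with the fibroblast sum (0.57), as a description. The part of these cells in the Prkcq level was not tested.

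Prkcd (PKCδ, a diacylglycerol-dependent isoform found in most tissues and abundant in macrophages) differed most of the 8 genes between GDF15 and PairFed. The PairFed mice had 103.3, 92.3, 77.9, 79.96 and 79.4 normalized counts, and the 6 GDF15 mice ranged from 114.2 over a median of 129.4 to 149.3. Every GDF15 mouse thus lay above every PairFed mouse. The Vehicle mice had 116.9, 108.4, 89.0, 104.2 and 154.3, a wide group that overlapped both others and held the highest single value. The group means were 114.6 ± 24.4 in Vehicle (SD, n = 5), 132.6 ± 13.7 in GDF15 (n = 6) and 86.6 ± 11 in PairFed (n = 5). The approximate number of reads behind the Prkcd values was 70 to 184 per library.

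**Figure D2:**
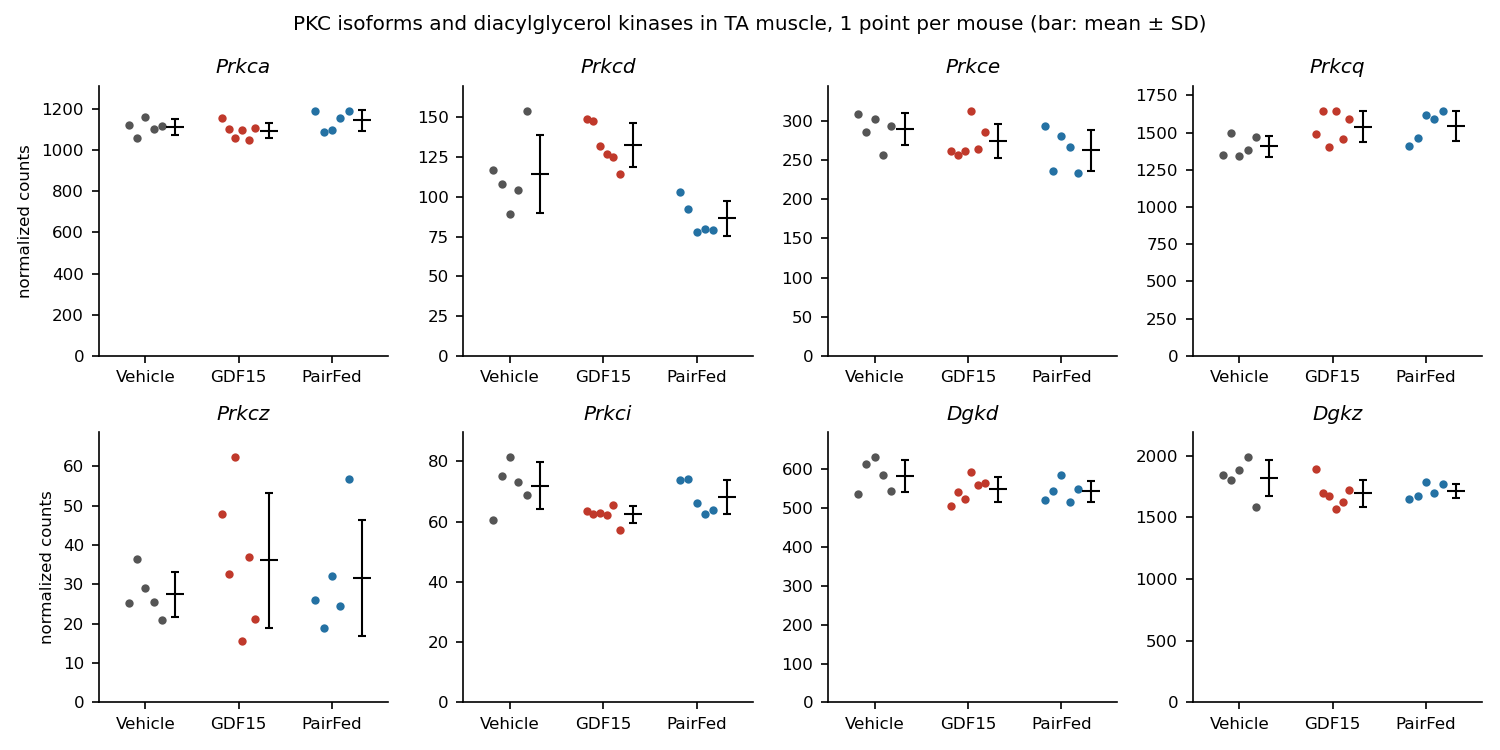
Normalized counts (y axis, from 0) of the 8 genes in each mouse (points) of the Vehicle, GDF15 and PairFed groups (x axis), with the group mean and SD as a bar beside the points. In the Prkcd panel the GDF15 points start at 114.2 and the PairFed points end at 103.3, while in the 7 other panels these groups overlap.

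On the log2 scale, Prkcd was 0.61 higher in GDF15 than in PairFed (SE 0.13, 95% interval 0.35 to 0.88), a 1.53-fold difference (1.27 to 1.84). It was the only member past both thresholds of the study for this muscle, an adjusted p under 0.1 in limma's moderated test over all 11841 genes and a log2 difference above 0.6. That is 1 of 8 members beside 0.279% of all genes tested. It was also the only 1 of 8 under an adjusted p of 0.1 alone (2.17% of all genes) and the only 1 of 8 whose groups did not overlap (1.77% of all genes). Prkcd was among the reasons for choosing these genes, so nothing is read from these counts.

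The size of the Prkcd difference sat at the threshold. It fell just below 0.6 when GDF15 mouse 1 (0.577), GDF15 mouse 2 (0.579), PairFed mouse 4 (0.576), PairFed mouse 5 (0.586) or PairFed mouse 6 (0.583) was left out, with the adjusted p still under 0.1. It was also under 0.6 with a pseudocount of 5 in place of 1 (0.59) and on the deposited log2 scale (0.23), which compresses low genes. With library depth as a covariate, given the shallower GDF15 libraries, the difference was 0.73 and past both thresholds.

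Of the marker lists of other cell types with at least 3 tested genes, 5 had every marker above 0 between GDF15 and PairFed, with none under an adjusted p of 0.1. All 10 macrophage markers had a log2 difference above 0 (median 0.39, none with an adjusted p under 0.1 in limma), with sums of 317.2 to 719.4 normalized counts in GDF15, 260.1 to 711.2 in PairFed and 359.1 to 627.4 in Vehicle. Differences were also above 0, with none under an adjusted p of 0.1, for all 7 fibroblast markers (median 0.35; sums 8743 to 15834 in GDF15 and 7190.2 to 13953 in PairFed) and all 7 Schwann cell markers (median 0.52; sums 1018 to 1378 in GDF15 and 566.8 to 1474 in PairFed). The sums of the 2 groups overlapped in each case, and none of these markers was at 0 in any library. The remaining lists were smooth muscle and pericytes (6 of 6 above 0, median 0.079) and red blood cells (3 of 3, median 1.17), whose sums overlapped too, at 6902 to 8731 in GDF15 and 7190 to 7813 in PairFed for the first and 838 to 2556 and 79.9 to 3743 for the second. The log2 difference of Prkcd was 0.63 with the macrophage sum as a covariate, 0.55 with the fibroblast sum and 0.61 with the Schwann cell sum, as a description, with the covariates chosen after the data were seen. Prkcd was past both thresholds with the macrophage covariate. It was under the fold threshold with the fibroblast covariate, and its adjusted p was above 0.1 with the Schwann cell covariate, the 1 of 33 alternatives where this was so. The Schwann cell covariate also took the calls over all genes from 33 to 4. The part of these cell types in the Prkcd difference was not tested. In bulk muscle, more cells of a type and more RNA per cell cannot be told apart.

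**Figure D3:**
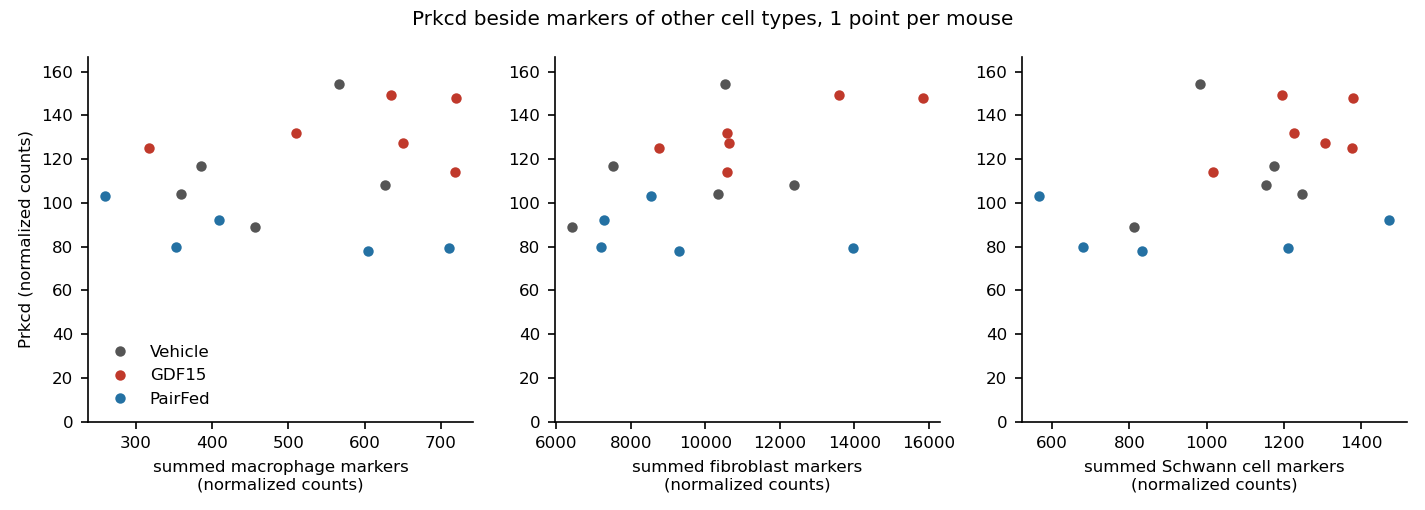
Prkcd (y axis, normalized counts) against the summed markers of macrophages, fibroblasts and Schwann cells (x axes, normalized counts), 1 point per mouse. The summed markers of GDF15 and PairFed mice overlap for macrophages (317.2 to 719.4 and 260.1 to 711.2). They also overlap for fibroblasts (8743 to 15834 and 7190.2 to 13953) and Schwann cells (1018 to 1378 and 566.8 to 1474). Prkcd runs from 114.2 to 149.3 in GDF15 and 77.9 to 103.3 in PairFed, and the part of these cells was not tested.

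Across the 16 libraries, which fall in 3 groups, Pearson's r of Prkcd with the macrophage sum was 0.22, and -0.087 once the group means were subtracted. It was 0.46 and 0.30 with the fibroblast sum and 0.42 and 0.021 with the Schwann cell sum. These values are a description of these libraries.

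Against Vehicle, Prkcd was 0.23 higher in GDF15 on the log2 scale (SE 0.13, 95% interval -0.037 to 0.49) and 0.39 lower in PairFed (-0.39, SE 0.13, interval -0.66 to -0.11). All 6 GDF15 mice lay above and all 5 PairFed mice below the Vehicle median, and both groups overlapped the Vehicle group. The 7 Schwann cell markers lay on the same sides, with 7 of 7 above 0 for GDF15 against Vehicle (median 0.23) and 0 of 7 for PairFed against Vehicle (-0.155). For macrophages these were 9 of 10 (0.29) and 4 of 10 (-0.075), for fibroblasts 5 of 7 (0.33) and 2 of 7 (-0.12), and none of these markers had an adjusted p under 0.1 in either comparison. Their sums in GDF15 and in PairFed overlapped those in Vehicle, which were 812 to 1248 for Schwann cells and 6430 to 12370 for fibroblasts, and their part in these Prkcd differences was not tested. None of the 8 members passed the thresholds in either comparison, beside 0.304% of all genes for GDF15 against Vehicle and 0.819% for PairFed against Vehicle. With an adjusted p under 0.1 alone these were 0 of 8 members and 0.769% of genes, and 0 of 8 and 6.37%. No member's groups were free of overlap, beside 1.65% and 5.44% of genes. Both Prkcd values leaned on 2 Vehicle mice. Without mouse 5, the highest, GDF15 against Vehicle was 0.34 and PairFed against Vehicle -0.27. Without mouse 3, the lowest, they were 0.14 and -0.47, the second with an adjusted p under 0.1.

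**Figure D4:**
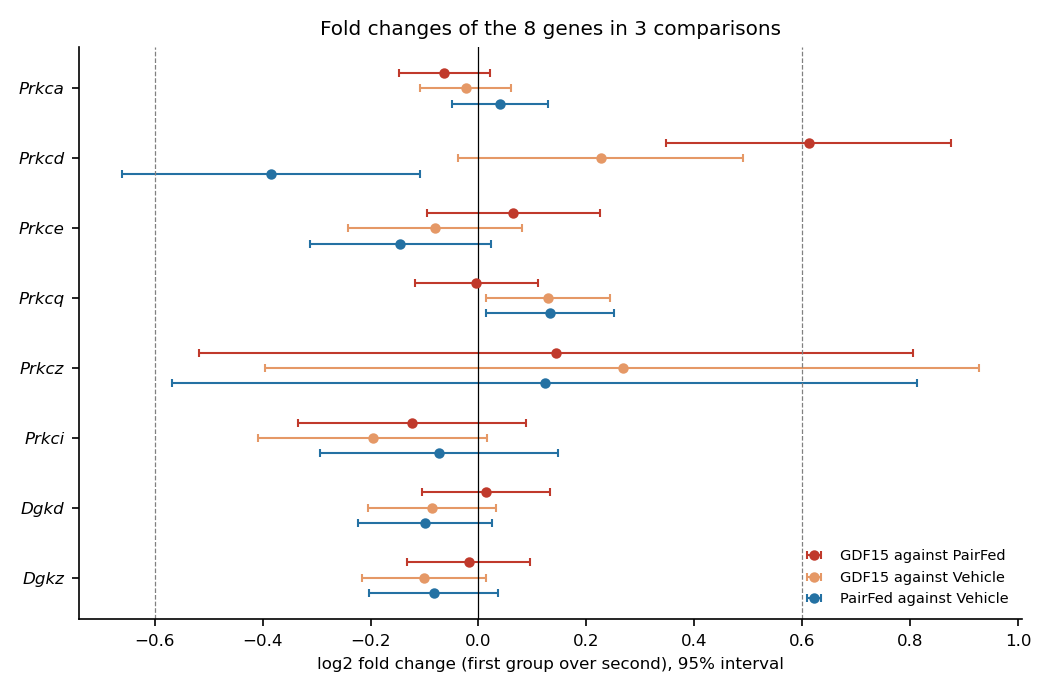
Log2 fold change with its 95% interval (x axis) of each gene (y axis) in the 3 comparisons (colours), with dashed lines at the fold threshold of 0.6 in either direction. Only the GDF15 against PairFed point of Prkcd, at 0.61, lies past a dashed line.

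The other diacylglycerol-dependent isoforms differed less. Prkcq had 1347, 1499, 1339.8, 1381 and 1469 normalized counts in Vehicle, 1401 to 1648 (median 1542) in GDF15 and 1409, 1463, 1618, 1589.7 and 1642 in PairFed. Both groups with a lower food intake lay above the Vehicle median in every mouse, 6 of 6 and 5 of 5, and overlapped the Vehicle range. The log2 differences from Vehicle were 0.13 in GDF15 (SE 0.054, 95% interval 0.015 to 0.24) and 0.13 in PairFed (SE 0.057, interval 0.014 to 0.25), and GDF15 and PairFed differed by -0.0042 (interval -0.12 to 0.11). Prkce (PKCε) ranged from 255.96 to 308.5 in Vehicle, 256.8 to 313.2 in GDF15 and 233.5 to 293.1 in PairFed. All 5 PairFed mice were below the Vehicle median of Prkce, with a log2 difference of -0.14 (interval -0.31 to 0.023).

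Prkca was the steadiest member, with a coefficient of variation of 3.97% over all 16 libraries. It ranged from 1057 to 1162 normalized counts in Vehicle, 1049 to 1154 in GDF15 and 1088 to 1191 in PairFed. All 6 GDF15 mice lay at or below 1154, under the PairFed median of 1155, and the log2 difference was -0.064 (95% interval -0.15 to 0.021). As a fold this was 0.957 (interval 0.903 to 1.01).

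Of the atypical isoforms, Prkcz was the least precisely measured of the 8 genes. It rested on about 12 to 58 reads per library and ranged from 21.1 to 36.4 normalized counts in Vehicle, 15.64 to 62.4 in GDF15 and 19.0 to 56.8 in PairFed. Its GDF15 against PairFed interval, -0.52 to 0.81 on the log2 scale, spans 0 and the fold threshold. Prkci (PKCι, also called PKCλ in mice) had 60.6, 75.2, 81.5, 73.3 and 68.9 in Vehicle, 57.1 to 65.6 (median 62.7) in GDF15 and 73.9, 74.3, 66.2, 62.6 and 63.8 in PairFed. The GDF15 mice formed a narrow group, all 6 below both other groups' medians, with log2 differences of -0.20 from Vehicle (interval -0.41 to 0.016) and -0.12 from PairFed (interval -0.34 to 0.089).

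Both diacylglycerol kinases kept close levels in the 3 groups. Dgkd, which limits diacylglycerol in muscle and has been tied to insulin sensitivity, ranged from 536.5 to 630.7 in Vehicle, 503.9 to 592.4 in GDF15 and 515.7 to 584.7 in PairFed. Its log2 difference between GDF15 and PairFed was 0.014 (95% interval -0.11 to 0.13). Dgkz, the kinase studied for its part in muscle growth through phosphatidic acid, ranged from 1587 to 1988 in Vehicle, 1569 to 1887 in GDF15 and 1649.6 to 1782 in PairFed. It differed by -0.018 (interval -0.13 to 0.096) between GDF15 and PairFed. All 5 PairFed mice were below the Vehicle median for both kinases, at -0.0998 for Dgkd (interval -0.22 to 0.024) and -0.083 for Dgkz (interval -0.20 to 0.036). For Dgkd, part of the reads could belong to Usp40 (mean 216 normalized counts), which shares exon sequence on the opposite strand. Prkca shares exon sequence in the same way with Apoh (8.49).

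The members did not move as a block. Their median log2 difference was 0.0047 for GDF15 against PairFed, -0.052 for GDF15 against Vehicle and -0.078 for PairFed against Vehicle, beside 0.0025, 0.00081 and 0.0013 over all genes tested. Over the 28 pairs of members, Pearson's r across the 16 libraries ran from -0.52 (Prkcq and Prkci) to 0.46 (Prkci and Dgkd), with a median of -0.036. With group means subtracted it ran from -0.68 (Prkcd and Dgkd) to 0.43 (Prkcz and Dgkz), with a median of -0.034.

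The remaining family members were described by level and by test. Prkch averaged 166.6 ± 24.5 normalized counts (SD, n = 16), Prkd1, Prkd2 and Prkd3 (protein kinase D, activated by PKC) averaged 63.8, 114.1 and 172.4, and Pkn2 and Pkn3 (PKC-related kinases) averaged 626.9 and 114.8. Prkcb (0.713) was under the filter. In the list of 9 other PKC and related kinases, 7 could be tested and 0 passed an adjusted p of 0.1 in limma in any of the 3 comparisons. At an unadjusted p under 0.05 there was 1 for GDF15 against PairFed, 1 for GDF15 against Vehicle and 0 for PairFed against Vehicle, beside 13.2%, 11% and 18.9% of all genes tested. Dgka (210.4), Dgke (161.5), Dgkq (106.9), Dgkh (75.99) and Dgkb (15.9) were the other diacylglycerol kinases tested, while Dgkg (8.16) was under the filter and Dgki and Dgkk had no row.

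The wider diacylglycerol and PKC pathway was covered by 7 lists with 111 genes, 91 of them tested, chosen with earlier results known. Between GDF15 and PairFed, 2 of 91 passed both thresholds, beside 0.279% of all genes, and both were higher in GDF15. Both came from the 15 tested genes of a list named diacylglycerol use, which also holds genes of triglyceride breakdown. That breakdown passes through diacylglycerol, so the list does not hold consumers of diacylglycerol alone. Pnpla3, a lipase-like protein of lipid droplets, had 17.99, 17.0, 19.2, 19.5 and 12.7 normalized counts in PairFed and 21.4 to 38.5 (median 27.7) in GDF15, without overlap. Its log2 difference was 0.68 (SE 0.18, limma adjusted p = 0.0789). G0s2, an inhibitor of the lipase ATGL that starts triglyceride breakdown, had 76.7, 112.7, 103.5, 102.3 and 94.3 in PairFed and 114.8 to 175.8 (median 161.9) in GDF15, without overlap. Its log2 difference was 0.61 (SE 0.13, limma adjusted p = 0.0398).

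These 2 calls were narrow. Pnpla3 passed both thresholds in 16 of 33 alternatives and G0s2 in 23. Both calls were lost with a pseudocount of 5, on the deposited scale, with the mouse-number block and with the Schwann cell covariate. Pnpla3 was no longer past both thresholds when GDF15 mouse 2 (0.702), 3 (0.695), 4 (0.682), 5 (0.674) or 6 (0.596) or PairFed mouse 2 (0.702), 5 (0.729) or 6 (0.584) was left out. G0s2 fell under the fold threshold without GDF15 mouse 1 (0.575), 2 (0.568), 3 (0.592) or 5 (0.56) or PairFed mouse 2 (0.524) or 6 (0.598). Its limma adjusted p was not under 0.1 in 3 of 33 alternatives. In the PKC regulators, scaffolds and substrates, 2 of 23 passed an adjusted p of 0.1 alone, beside 2.17% of all genes. Add3, an adducin of the membrane skeleton and a PKC substrate, was 0.32 higher in GDF15 (SE 0.06, limma adjusted p = 0.0170), and Sqstm1 (p62, an autophagy adaptor that binds the atypical isoforms) was 0.26 lower (-0.26, SE 0.056, limma adjusted p = 0.0355). The adjusted p of Sqstm1 was above 0.1 without PairFed mouse 5 (-0.24) or 6 (-0.24). In the lists of other PKC-related kinases, other diacylglycerol kinases, phospholipases C and D, diacylglycerol synthesis and other diacylglycerol receptors, 0 of 7, 0 of 5, 0 of 16, 0 of 15 and 0 of 10 passed. Over all 91 genes, 12 had an unadjusted p under 0.05, or 13.2%, the same share as over all genes tested (13.2%).

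**Figure D5:**
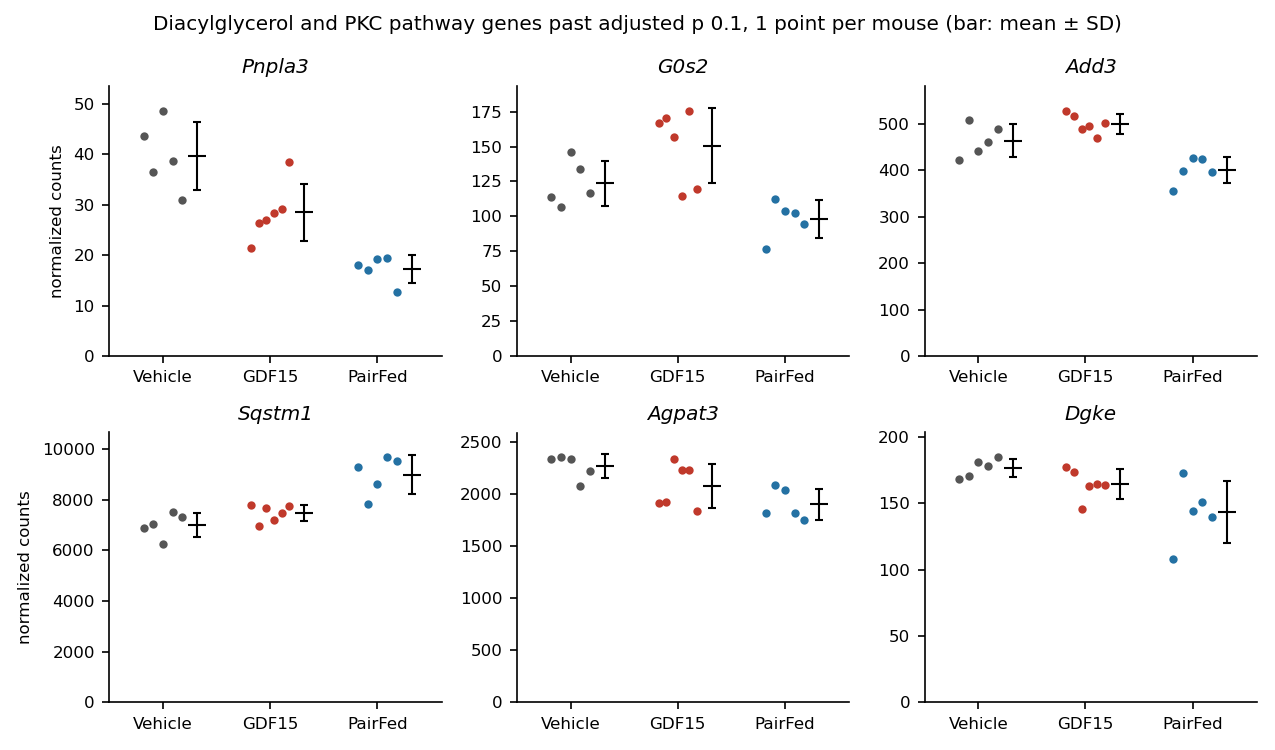
Normalized counts (y axis, from 0) of the 6 pathway genes with a limma adjusted p under 0.1 in any comparison, in each mouse (points) of the 3 groups (x axis), with the mean and SD as a bar. Pnpla3, G0s2 and Add3 are lower and Sqstm1 higher in every PairFed mouse than in every GDF15 mouse.

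Between PairFed and Vehicle, Pnpla3 fell by 1.15 on the log2 scale (SE 0.19, limma adjusted p = 0.00298), from 31.0 to 48.7 normalized counts in Vehicle to 12.7 to 19.5 in PairFed, and was the 1 of 91 genes past both thresholds, beside 0.819% of all genes. At an unadjusted p under 0.05 in limma there were 16 of 91 genes, 5 higher and 11 lower, or 17.6% beside 18.9% of all genes tested. Among these, 6 of the 15 genes of the list named diacylglycerol use were lower and 3 of the 16 phospholipase C and D genes higher. An adjusted p under 0.1 alone was reached by 5 of 91 genes, beside 6.37% of all genes. Besides Pnpla3 these were Sqstm1, 0.36 higher in PairFed (SE 0.058, limma adjusted p = 0.00322), Agpat3, an acyltransferase of phosphatidic acid synthesis (-0.26, SE 0.069, limma adjusted p = 0.0495), Add3 (-0.21, SE 0.063, limma adjusted p = 0.0682) and Dgke (DGKε, -0.32, SE 0.10, limma adjusted p = 0.0913). Dgke had 108.1, 172.8, 144.3, 150.7 and 139.5 in PairFed and 168.0, 170.7, 181.1, 178.1 and 184.8 in Vehicle, and was the 1 diacylglycerol kinase tested that passed. Its call held in 15 of 33 alternatives and was lost without any one of the Vehicle mice, GDF15 mice 2, 4, 5 or 6, or PairFed mice 2 (-0.22), 4, 5 or 6. Add3 was lost without Vehicle mouse 2 (-0.18), 4 or 5 or PairFed mouse 2 (-0.17) or 6, and Agpat3 without Vehicle mouse 1, 2 or 3 or PairFed mouse 2, 5 or 6 (-0.227). Between GDF15 and Vehicle, 0 of 91 genes passed an adjusted p of 0.1 in limma, with 9 at an unadjusted p under 0.05, or 9.89% beside 11% of all genes tested. Gpam, an acyltransferase at the start of glycerolipid synthesis, named after its values were seen, was the 1 of 91 whose groups did not overlap (1.65% of all genes), at -0.22 (SE 0.056, limma adjusted p = 0.112), and its adjusted p was under 0.1 in 2 of 33 alternatives, with only the 2 groups compared and without PairFed mouse 4.

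The genes whose pattern over the 16 libraries was most like that of each member were found by Pearson's r on log2 normalized counts, as a description. For Prkcd these were B3galnt2 (r = 0.815), Ssr2 (0.809) and Vmp1 (0.791), which fell to 0.54, 0.607 and 0.487 once group means were subtracted. For Prkcq they were Twist1 (0.866), Inhbb (0.833) and Nfx1 (0.829). For Prkca, Noc3l had r = 0.901 and Ube2d1 0.854, followed by Sms at 0.844. For Prkce they were Xpo7 (0.838), Eif4g2 (0.833) and Snx16 (0.816). For Prkcz they were Ctps2 and Jmjd8 (both 0.764) and Aftph (0.759), and for Prkci Arhgap18 (0.809), Snn (0.758) and Pde12 (0.743). Dgkd was most like Axin2 (0.792), Hdhd2 (0.771) and Mxi1 (0.758), and Dgkz was most like Foxp1 and Nemf (both 0.767) and Mpzl1 (0.764). With group means subtracted, the r of the genes named for members other than Prkcd ran from 0.636 (Pde12 with Prkci) to 0.932 (Noc3l with Prkca).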

How the data were processed

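RNA of 16 tibialis anterior muscles was sequenced from both fragment ends with a directional library kit. Per the labels and the study's methods, the authors used Trim Galore for trimming, Salmon for quantification and DESeq2 for scaling and testing, with mm10 as the build named in the submitters' processing notes. Tool versions, the annotation and Salmon's strand setting are not given in the sources used here. The authors deposited log2 values (7.32 to 19.96) with the form of DESeq2's variance-stabilized values. With c as 2 to the power of the lowest value, they were turned back to normalized counts as the square of (2 to the power of the value, less c) divided by 2 to the power of the value. Low values gave whole multiples of 1 read (within 0.1) for 86.1% to 95.7% of values in genes with 1 transcript but 19.8% to 26.1% in genes with more than 4, so no count test was run.

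The 11841 genes averaging 10 or more normalized counts were fitted with limma 3.58.1 in R 4.3.3 on log2(normalized count + 1), over all 3 groups with a trend, and p-values were adjusted by Benjamini-Hochberg over all of them. A fold change on this scale understates that of low genes. Calls used the study's thresholds, an adjusted p below 0.1 together with an absolute log2 difference over 0.6. The labels give 1 mouse per library.

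Levels per kilobase used GENCODE vM21 transcripts. Members and lists were chosen with earlier results of these data known. Named were the 8 members, the other PKC and diacylglycerol kinase genes, list genes past both thresholds, up to 3 per list with an adjusted p under 0.1, and 3 genes most like each member. The values of a few list genes are not reported here. The fit was tested on simulated data. The alternatives were other pseudocounts, filters, scalings, variance settings, covariates, a mouse-number block and leaving out each mouse.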

Additional observations from a re-analysis of the deposited data

How the results depend on the processing

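Prkcd was higher in GDF15 than in PairFed in all 33 alternatives (log2 difference 0.233 to 0.731) and past both thresholds in 23. The groups did not overlap, so leaving out a mouse could not reverse the direction, and leaving out a Vehicle mouse left 0.612 unchanged. Nothing is read from the shared direction. Against 1 member called for GDF15 against PairFed, 0 were called with a pseudocount of 5, on the deposited log2 scale, with the replicate block, or with the fibroblast or Schwann cell covariate. Leaving out 1 mouse gave 0 to 1. The deposited scale compresses low genes by its construction, and for the rest the cause was not tested. Against 2 pathway genes called, 0 were called with a pseudocount of 5, the deposited scale, the block or the Schwann cell covariate, and 1 without a filter, with only the 2 groups compared, with quantile normalization, or with the depth or macrophage covariate. Leaving out 1 mouse gave 0 to 2. Over all genes, 33 were called in this comparison, 7 on the deposited scale, 17 with the macrophage and 4 with the Schwann cell covariate. Leaving out 1 mouse gave 15 (PairFed 5) to 62 (PairFed 3), and under 22 also without PairFed 2 (17) or 6 (18) or GDF15 4 (19) or 2 (21).

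For GDF15 against Vehicle, 36 genes were called, 9 on the deposited scale, 19 with the depth covariate and 20 with the block, and 21 (GDF15 2) to 38 (PairFed 6) with 1 mouse left out, with 22 without Vehicle 2 and 23 without Vehicle 3. For PairFed against Vehicle, 97 were called, 17 on the deposited scale, and 60 (PairFed 5 or 6) to 157 (PairFed 3) with 1 mouse left out, with 63 without PairFed 2. The 1 pathway gene called there became 0 on the deposited scale and 2 without PairFed 3 or 4, and 1 to 2 was the range with 1 mouse left out.

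At an adjusted p under 0.1 alone, 257 genes for GDF15 against PairFed became 115 without a trend, 122 with only the 2 groups, 109 with depth, 89 with macrophage and 16 with Schwann cell covariates, and 66 to 372 with 1 mouse left out. The 91 for GDF15 against Vehicle became 48 without a trend, 32 with depth, 38 with the block and 45 to 97 with 1 mouse left out. The 754 for PairFed against Vehicle became 497 with the Schwann cell covariate and 406 to 1051 with 1 mouse left out, and its 5 pathway genes became 3 with the block and 2 to 11 with 1 mouse left out (11 without PairFed 3 and 8 without PairFed 4). In PairFed against Vehicle, 1 member passed this rule instead of 0 with library quality weights, depth or Vehicle 3 left out (Prkcd), and with the macrophage covariate (Prkcq).

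Deviations from the group means of same-numbered mice correlated at -0.0994 to 0.0665 over 14 pairs, 0 of them over 0.1. Of 71 pairs with unlike numbers, 2 were over 0.1. These values gave no sign of pairing by number, but such a check cannot exclude it. The replicate block by mouse number gave Prkcd a log2 difference of 0.585 between GDF15 and PairFed. No result with a call changed direction, which leaving out a mouse could not bring about where the groups did not overlap. The 3 marker covariates were chosen after the data were seen. The fewest reads per library were behind Prkcz (about 12 to 58), then Prkci (47 to 86) and Prkcd (70 to 184).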

Other observations

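Markers of the remaining cell types were described with the same limma fit, as counts of tested markers with a log2 difference above 0 between GDF15 and PairFed. These were 2 of 8 for myofibres (median -0.088), 4 of 7 for slow myofibres (0.048), 4 of 8 for endothelium (-0.013), 3 of 6 for adipocytes (-0.017), 2 of 4 for satellite cells (0.013), 1 of 2 for neutrophils and mast cells (-0.070) and 1 of 1 for T cells (0.12). None had an adjusted p under 0.1. The part of these cell types in the Prkcd difference was not tested.

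Between PairFed and Vehicle, 3 of 8 myofibre markers had a limma adjusted p under 0.1, with 6 of 8 above 0 and sums of 2113000 to 2393000 normalized counts in PairFed against 1952000 to 2199000 in Vehicle. In the same comparison 1 of 8 endothelial markers passed, with 7 of 8 below 0 (median -0.16), and 1 of 6 smooth muscle and pericyte markers, with 6 of 6 below 0 (-0.12). Between GDF15 and Vehicle, 1 of 8 endothelial markers passed, with 8 of 8 below 0 (-0.15). No marker of another list passed in these 2 comparisons. For GDF15 and for PairFed against Vehicle, in this order, the markers above 0 were 6 and 6 of 6 for adipocytes (median 0.44 and 0.58), 6 and 6 of 7 for slow myofibres (0.33 and 0.42), 3 and 2 of 3 for red blood cells (1.24 and 0.069), and 2 and 2 of 4 for satellite cells (-0.070 and 0.0028). Smooth muscle and pericytes had 0 of 6 above 0 for GDF15 against Vehicle (-0.052).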
